A study of Spodoptera frugiperda with 15 samples.

Results

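Fructose-bisphosphate aldolase is represented by 4 of the 20784 genes in the deposited table of fall armyworm (Spodoptera frugiperda) transcripts. They are LOC118274716, LOC118275119, LOC118274664 and LOC118275099, and no other gene of the table carries that description. They were grouped because LOC118274664 and LOC118275099 were nearly silent in insects treated with tetrazolidamide, so every value for that treatment below is a description and carries no test. All 4 genes had enough counts to be tested in the other comparisons.

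Whole bodies of wild-type insects gave 15 RNA libraries. There were 3 from insects labelled control and 3 each from insects given emamectin benzoate, cyantraniliprole, spinetoram or tetrazolidamide. Emamectin benzoate is an avermectin whose target is the glutamate-gated chloride channel, cyantraniliprole is a diamide acting on the ryanodine receptor, and spinetoram is a spinosyn acting on nicotinic acetylcholine receptors. Tetrazolidamide is known here by name alone. The labels give no dose, exposure time, developmental stage or strain. Nothing in them states that replicates were different animals, so p-values measure only the spread between these samples, which may be technical. The libraries held 50600821 to 77183281 estimated count units. Levels are given as FPKM (fragments scaled to transcript length and to library size), which can be compared between genes.

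Aldolase splits fructose bisphosphate into dihydroxyacetone phosphate and glyceraldehyde phosphate, the step of glycolysis that turns a hexose into a pair of trioses. It works in the reverse direction in gluconeogenesis. The enzyme is abundant in muscle, where it binds to the contractile apparatus, and the deposited annotation gives all 4 genes the cell component terms Z disc and M band. Both names refer to structures of the sarcomere.

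The 4 genes lie as head-to-head pairs at a pair of loci on one sequence, NC_049729.1, of a genome build that is not given in the sources used here. At the first locus, LOC118274716 lies on the minus strand at 4385362 to 4407106 and is described as fructose-bisphosphate aldolase, with 4 transcripts. Its neighbour LOC118275119, on the plus strand at 4409593 to 4419726, is described as fructose-bisphosphate aldolase-like and has 3 transcripts. Their start sites are 2487 bp apart. At the second locus, LOC118274664 lies on the minus strand at 6507602 to 6529348 and has the same description as LOC118274716, with 6 transcripts. LOC118275099, on the plus strand at 6535288 to 6546827, has the same description as LOC118275119 and 3 transcripts, and its start site is 5940 bp from that of LOC118274664. The genes described as fructose-bisphosphate aldolase span nearly the same length at both loci, 21745 bp for LOC118274716 and 21747 bp for LOC118274664. The aldolase-like genes span 10134 bp for LOC118275119 and 11540 bp for LOC118275099. The start sites of LOC118274716 and LOC118274664 are 2122242 bp apart, and those of the aldolase-like genes 2125695 bp apart.

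The genes around the aldolase genes also came as pairs. Among the 10 genes on each side at both loci, together with the aldolase genes, 18 pairs shared description and strand in the same order along the sequence, out of 22 genes at each locus. Besides the 2 aldolase pairs, they included a gene for subunit A of translation initiation factor 3 and one for bleomycin hydrolase on the left. On the right they included a trypsin 5G1-like gene, 2 alpha-tocopherol transfer protein-like genes and an aldo-keto reductase AKR2E4-like gene. In the RefSeq gene table of the assembly AGI-APGP_CSIRO_Sfru_2.0, 17 of the 18 pairs had exactly 1 of their 2 gene identifiers, 1 pair had neither and 0 pairs had both. Of the aldolase genes, LOC118274664 and LOC118275099 were found there and are neighbours in that table. Reads that match both copies of a pair could be assigned to either. How such reads were assigned is not given in the sources used here, so the split between copies is less certain than their sum. Whether the collinear stretches are separate copies in every genome, or versions of 1 region that the assembly keeps apart, was not tested, and a level near 0 at 1 locus has to be read with that limit.

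LOC118274716, the main aldolase gene of the first locus, was the most abundant of the 4 in all 15 libraries. By FPKM it ranked between 237 and 399 among all 20784 genes. Control libraries 1 to 3 had 314, 507 and 313 FPKM. Libraries 1 to 3 had 385, 377 and 356 FPKM with emamectin benzoate, 340, 305 and 336 with cyantraniliprole, and 271, 283 and 253 with spinetoram. With tetrazolidamide they had 263, 257 and 237 FPKM. Control 2 stood above every other library, while the other 2 controls overlapped with cyantraniliprole and lay below all 3 emamectin benzoate libraries. In order of group means the levels were 378 ± 112 in control, 372 ± 15.1 with emamectin benzoate, 327 ± 19 with cyantraniliprole, 269 ± 14.7 with spinetoram and 252 ± 13.7 with tetrazolidamide (SD, n = 3). The control and emamectin benzoate means differed by less than the control SD, and the spinetoram and tetrazolidamide libraries overlapped.

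LOC118274664, its counterpart at the second locus, was the next most abundant in most libraries outside tetrazolidamide. Control libraries 1 to 3 had 132, 150 and 85.9 FPKM, and those of emamectin benzoate 138, 96.9 and 67.7. Cyantraniliprole libraries had 37.5, 50.3 and 68.7 FPKM and spinetoram libraries 92.4, 89.8 and 90.4. All 3 cyantraniliprole libraries lay below all 3 controls, whereas emamectin benzoate overlapped with control, with 1 library below it, and the spinetoram libraries sat close together inside the control range. Tetrazolidamide libraries had 2.89, 1.99 and 2.99 FPKM, from 421, 302 and 543 count units. The lowest library of any other group was 37.5 FPKM, so the tetrazolidamide libraries were apart from all 12. The means were 123 ± 33 FPKM in control, 101 ± 35.5 with emamectin benzoate, 90.8 ± 1.37 with spinetoram, 52.2 ± 15.7 with cyantraniliprole and 2.62 ± 0.548 with tetrazolidamide (SD, n = 3). The tetrazolidamide mean was 2.14% of the control mean, a log2 fold change of -5.41.

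LOC118275099, the aldolase-like gene of the second locus, had 19.9, 34.4 and 32.6 FPKM in the 3 controls. It had 28.4, 35 and 27.1 FPKM with emamectin benzoate, 25.2, 30.3 and 31.9 with cyantraniliprole, and 22.9, 26.2 and 11.1 with spinetoram. These 4 groups overlapped, and spinetoram 3 was the lowest library among them. With tetrazolidamide the 3 libraries had 0.143, 0.0463 and 0 FPKM. Those are 12, 4 and 0 count units, where 4 is the most common count above 0 in every library and is taken as about 1 read pair. A library at 0 allows up to 12 units (3 such read pairs), which covers counting error only. In tetrazolidamide 3 that is 0.165 CPM (counts scaled to library size) by the raw library total. The other CPM values here also include a normalization factor, with which this bound would be somewhat higher. The group means were 28.9 ± 7.89, 30.2 ± 4.22, 29.1 ± 3.52 and 20.1 ± 7.92 FPKM in control, emamectin benzoate, cyantraniliprole and spinetoram, against 0.0632 ± 0.073 with tetrazolidamide (SD, n = 3).

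LOC118275119, the aldolase-like gene of the first locus, varied widely between libraries of the same group. The controls had 23, 43.4 and 88.6 FPKM, and the tetrazolidamide libraries 68.4, 52.3 and 14.7. Emamectin benzoate libraries had 34.6, 56.3 and 59.9 FPKM, cyantraniliprole libraries 71.6, 47.8 and 50.7, and spinetoram libraries 27.2, 39 and 20.7. The control and tetrazolidamide ranges lay almost on top of each other, with control 3 highest and tetrazolidamide 3 lowest of all 15. The group means, from 56.7 ± 13 FPKM with cyantraniliprole to 29 ± 9.24 with spinetoram (SD, n = 3), did not differ beyond this spread.

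**Figure D1:**
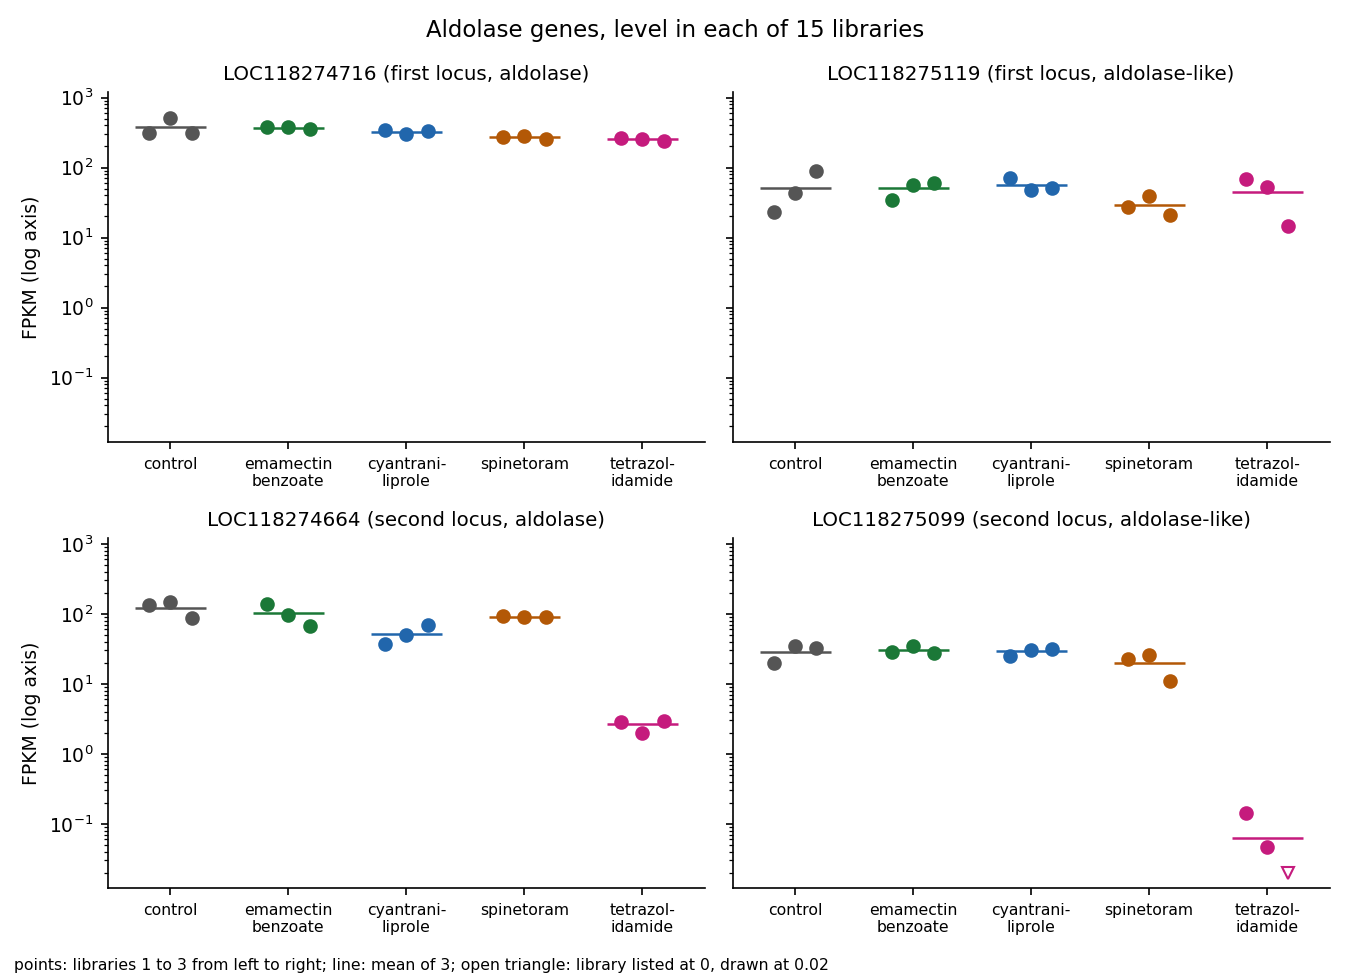
FPKM on a log axis of the 4 aldolase genes in each of the 15 libraries (points, replicates 1 to 3 from left to right) with the mean of 3 (lines). The second-locus genes in the lower panels drop with tetrazolidamide, to 1.99 to 2.99 FPKM for LOC118274664 and to 0.143 or less for LOC118275099, while the first-locus genes in the upper panels stay at 14.7 FPKM or more.

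The comparisons that did not choose these genes asked which transcripts differed from control with each of the other 3 insecticides. They were tested with edgeR's quasi-likelihood test and Benjamini-Hochberg adjustment over 15505 genes. Of the 4 aldolase genes 1 passed in 1 comparison: LOC118274664 was lower with cyantraniliprole, at -1.32 on the log2 scale with an SE of 0.31 (adjusted p = 0.0457). Over all genes 0.626% were called lower in that comparison and 2.62% in either direction. All 3 treated libraries were below all 3 controls, as were those of 10.1% of all genes, and DESeq2 gave -1.35 (adjusted p = 0.00184). The call was close to the threshold and ended, at adjusted p from 0.05 to 0.154, when any of these libraries was left out: control 1 or 2, any of the 3 of cyantraniliprole, any of the 3 of spinetoram, emamectin benzoate 2 or 3, or tetrazolidamide 1. A test of any difference among control and these 3 treatments gave adjusted p = 0.0806 for the same gene, where 4.51% of all genes were called.

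The first-locus counterpart LOC118274716 had a log2 fold change of -0.27 with cyantraniliprole (95% interval -0.65 to 0.11, adjusted p = 0.466), and whether both genes differ in their response was not tested. With spinetoram it stood at -0.39 (-0.77 to -0.01, adjusted p = 0.268) and with emamectin benzoate at 0.03 (-0.35 to 0.41, adjusted p = 0.963). LOC118274664 had -0.25 (-0.85 to 0.35) with emamectin benzoate and -0.34 (-0.94 to 0.26) with spinetoram. For the aldolase-like genes the intervals were wide. LOC118275099 had -0.04 (-1.08 to 0.99) with cyantraniliprole and LOC118275119 0.14 (-0.87 to 1.15). All these intervals take the SE with a normal distribution and are narrower than edgeR's test implies, so one that excludes 0 is not a call. They also carry no adjustment for the number of genes, so an adjusted call would have needed a larger change than their width shows. With spinetoram these 2 genes had -0.40 and -0.67, with adjusted p = 0.711 and 0.483. In the emamectin benzoate comparison 4.09% of all genes were called, 2.31% higher and 1.78% lower, and 0 of the 4 aldolase genes. In the spinetoram comparison 4.01% were called, 2.89% higher and 1.12% lower, and again 0 of the 4. At an unadjusted p under 0.05 the count was also 0 in both, and by DESeq2 as well. By CPM no aldolase gene had all 3 libraries outside the control range in these 2 comparisons. Of all genes by CPM, the groups of 11.6% and 9.96% did not overlap and were lower, and those of 13.6% and 11.6% were higher. By FPKM all 3 spinetoram libraries of LOC118274716 lay below all 3 controls, at 253 to 283 against 313 to 507. The share of all genes that do so by FPKM was not taken. The 3 comparisons share the same control libraries.

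The share of each pair that came from the second locus was read in each library. Whether the aldolase and aldolase-like pairs differ in how it varies with treatment was not tested. LOC118274664 made up 29.6%, 22.8% and 21.5% of the summed FPKM of its pair in the controls, and 25.4%, 24.1% and 26.3% with spinetoram. With emamectin benzoate it made up 26.5%, 20.4% and 16% and with cyantraniliprole 9.93%, 14.1% and 17%. The cyantraniliprole shares all lay below the controls, the spinetoram shares lay within their range and 2 of the emamectin benzoate shares lay below it. With tetrazolidamide it was 1.09%, 0.768% and 1.25%.

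LOC118275099 made up 46.4%, 44.2% and 26.9% of its pair in the controls, 45.1%, 38.3% and 31.2% with emamectin benzoate, 26%, 38.8% and 38.6% with cyantraniliprole and 45.7%, 40.2% and 34.9% with spinetoram. These ranges overlapped. With tetrazolidamide the shares were 0.209%, 0.0885% and 0%. Over the 12 other libraries the shares of both pairs had a Pearson correlation of 0.66, each point being 1 library. Over the same 12 libraries the log2 levels of the 2 second-locus genes had a correlation of -0.01, while over all 15 it was 0.94.

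**Figure D2:**
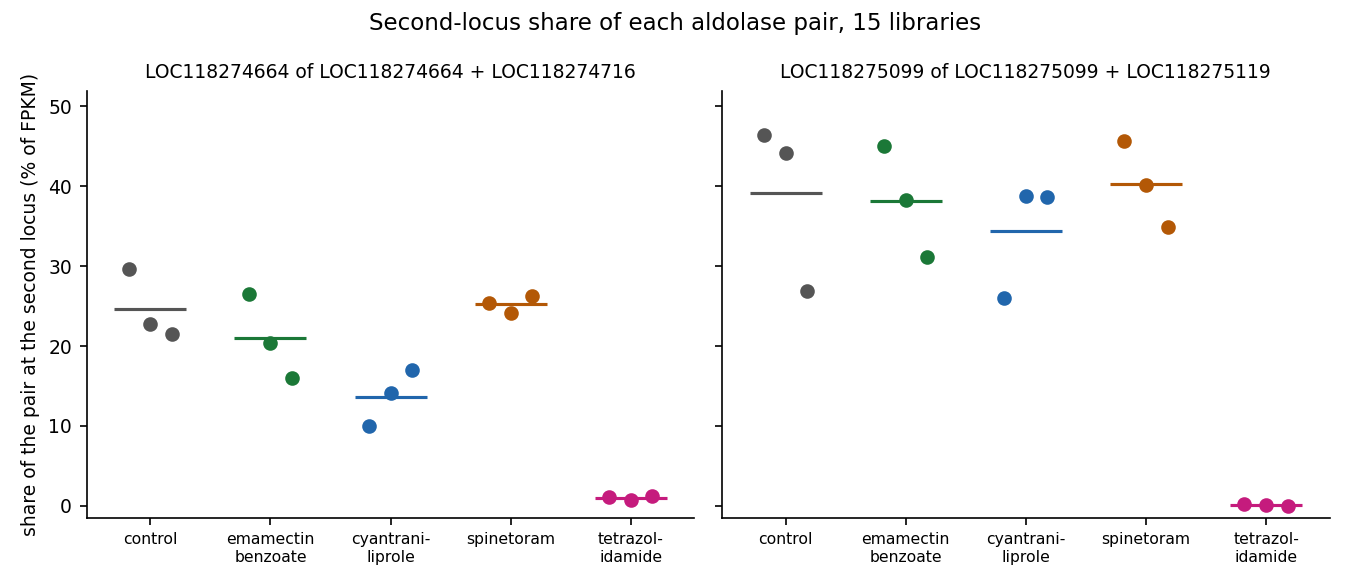
Share of the FPKM of each aldolase pair that was assigned to the second-locus gene, in percent, by library (points) with the mean of 3 (lines). Tetrazolidamide lies at 1.25% or less in both panels, and cyantraniliprole lies below control on the left but overlaps with it on the right.

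Summed over the 4 genes, the aldolase level was lowest with tetrazolidamide. The controls had 489, 735 and 520 FPKM, emamectin benzoate 586, 566 and 510, and cyantraniliprole 475, 434 and 487. Spinetoram libraries had 414, 438 and 376 FPKM and tetrazolidamide libraries 334, 312 and 255. The tetrazolidamide, spinetoram and cyantraniliprole libraries all lay below the lowest control, cyantraniliprole 3 by a narrow margin. As a share of the control mean of 582 ± 134, the group means were 95.3% with emamectin benzoate, 80% with cyantraniliprole, 70.3% with spinetoram and 51.6% with tetrazolidamide. Summed as CPM, 2 of 3 cyantraniliprole and 2 of 3 spinetoram libraries lay below all controls, at 74% and 76.2% of the control mean, and tetrazolidamide was at 53.7%. No test was run on these sums, since their members were chosen on the tetrazolidamide values.

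The first locus on its own also held less with tetrazolidamide, at 298 ± 41.3 FPKM against 430 ± 110 in control, and spinetoram had the same mean of 298 ± 23.7 (SD, n = 3). The second locus held 2.69 ± 0.561 FPKM with tetrazolidamide against 152 ± 32.8 in control. LOC118274716 supplied 78.6%, 82.6% and 93.1% of the summed aldolase level in the 3 tetrazolidamide libraries and 64.2%, 69% and 60.2% in the 3 controls.

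**Figure D3:**
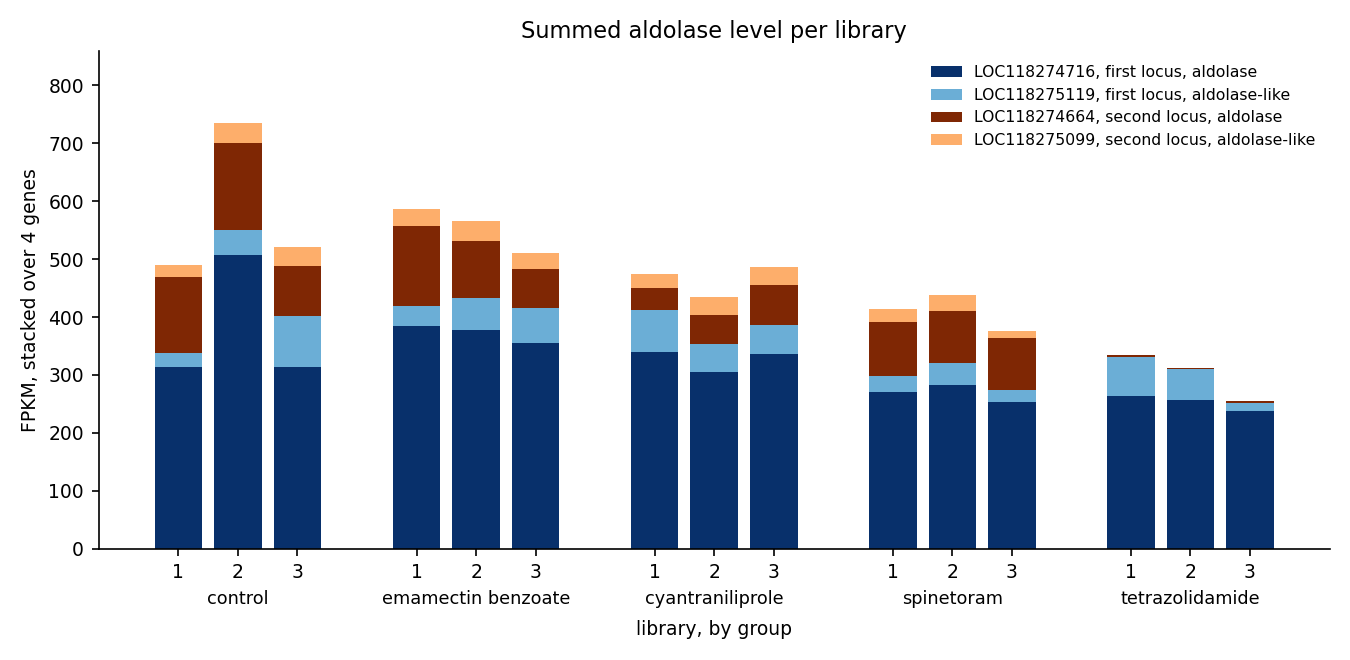
FPKM of the 4 aldolase genes stacked for each library, by group. The summed level runs from 489 to 735 in control and from 255 to 334 with tetrazolidamide, where the brown and orange parts of the second locus almost disappear.

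To the right of the second locus, several neighbours of the aldolase genes were also low with tetrazolidamide. Of the 10 right-hand neighbours at the second locus, 7 had 0 counts in all 3 tetrazolidamide libraries, and 0 of the 10 were at 0 in all 15 libraries. Among all 20784 genes, 22.7% were at 0 in those 3 libraries, or 11% of the genes with a count in any library. Several of the 7 were also at or near 0 elsewhere: LOC118275101 was at 0 in 9 of the 12 other libraries and LOC118275001 in 6. Of the 8 tested there, 3 were called lower and 0 higher against control, where 11.4% of all genes were called lower, in the contrast that chose the members. The nearest with a control mean above 1 FPKM was a trypsin 5G1-like gene, LOC118274818, of a family of digestive serine proteases. It did not pass against control and was at 0 in 4 of the 12 other libraries. It stood at 3.22 FPKM in control and 0 with tetrazolidamide, against 22.1 and 8.07 for its first-locus counterpart LOC118275107. That counterpart was itself called lower, at a log2 fold change of -1.31. An aldo-keto reductase AKR2E4-like gene, LOC118274962, was among the 3 called lower and had 56 FPKM in control and 2.54 with tetrazolidamide, against 268 and 142 for the first-locus gene LOC118274940. The gene LOC118274842, with no informative description, did not pass either, and was at 0.337 FPKM in control and 0 with tetrazolidamide, while its counterpart LOC118274810 stood at 2.41 and 28.1. The first-locus genes on that side were not all kept. Of 9 tested there 2 were called lower and 2 higher, where 11.4% and 10.9% of all genes were. LOC118275090, a hypothetical protein, had 122.5 ± 122 FPKM in control and 2.85 ± 0.862 with tetrazolidamide (SD, n = 3). Its second-locus counterpart LOC118275177 had 12.4 ± 15.7 and 0.0134 ± 0.0232. In control both varied between libraries by about as much as their means. The outermost of the 10 at the second locus, a further AKR2E4-like gene (LOC118275146), was not low, with 115.5 ± 20.4 FPKM in control and 158 ± 28.5 with tetrazolidamide (SD, n = 3).

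To the left of the aldolase genes several first-locus copies were low with tetrazolidamide. Of the 5 tested there 3 were called lower and 1 higher, in the contrast that chose the members. Over all genes 11.4% were called lower and 10.9% higher. Of the 7 tested left of the second locus 0 passed in either direction, which in so few genes lies near those shares. The gene for translation initiation factor 3 subunit A-like, part of the complex that loads messenger RNA onto the small ribosomal subunit, had 11.8 FPKM in control and 0.467 with tetrazolidamide at the first locus (LOC118274470). At the second locus (LOC118274596) it had 51.8 and 59.9. Bleomycin hydrolase, a cysteine protease, had 4.39 and 0.0618 FPKM at the first locus (LOC118275095) and 17.7 and 16.9 at the second (LOC118275013). The tyramine receptor gene between these and the aldolase genes showed neither pattern in full. Its second-locus copy (LOC118274911) had 1.14 FPKM in control and 0.79 with tetrazolidamide, and its first-locus copy (LOC118274948) 2.28 and 7.21.

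Of the 10 collinear pairs with a mean of at least 1 FPKM besides the aldolase pairs, the second-locus share with tetrazolidamide was over 95% in 3 and under 5% in 6. The 3 lay left of the aldolase genes and the 6 lay right of them. In the other 4 groups the share of the initiation factor pair ran from 64.4% to 89.5% over libraries, and the mean shares of the 6 right-hand pairs from 2.91% to 17.3%. Summed over both copies, that pair had 63.6 FPKM in control and 60.4 with tetrazolidamide, and the bleomycin hydrolase pair had 22.1 and 17. The sums to the right went both ways. The AKR2E4-like pair had 324 FPKM in control and 145 with tetrazolidamide, and the trypsin 5G1-like pair 25.4 and 8.07. The hypothetical protein pair (LOC118275090 and LOC118275177) had the largest fall among them relative to its control mean, from 135 to 2.87 FPKM. That control mean came from libraries that varied widely. The alpha-tocopherol transfer protein-like pair nearest to the aldolase genes (LOC118275089 and LOC118274737) had 9.14 and 15.2 FPKM, and the pair with LOC118274810 had 2.75 and 28.1.

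**Figure D4:**
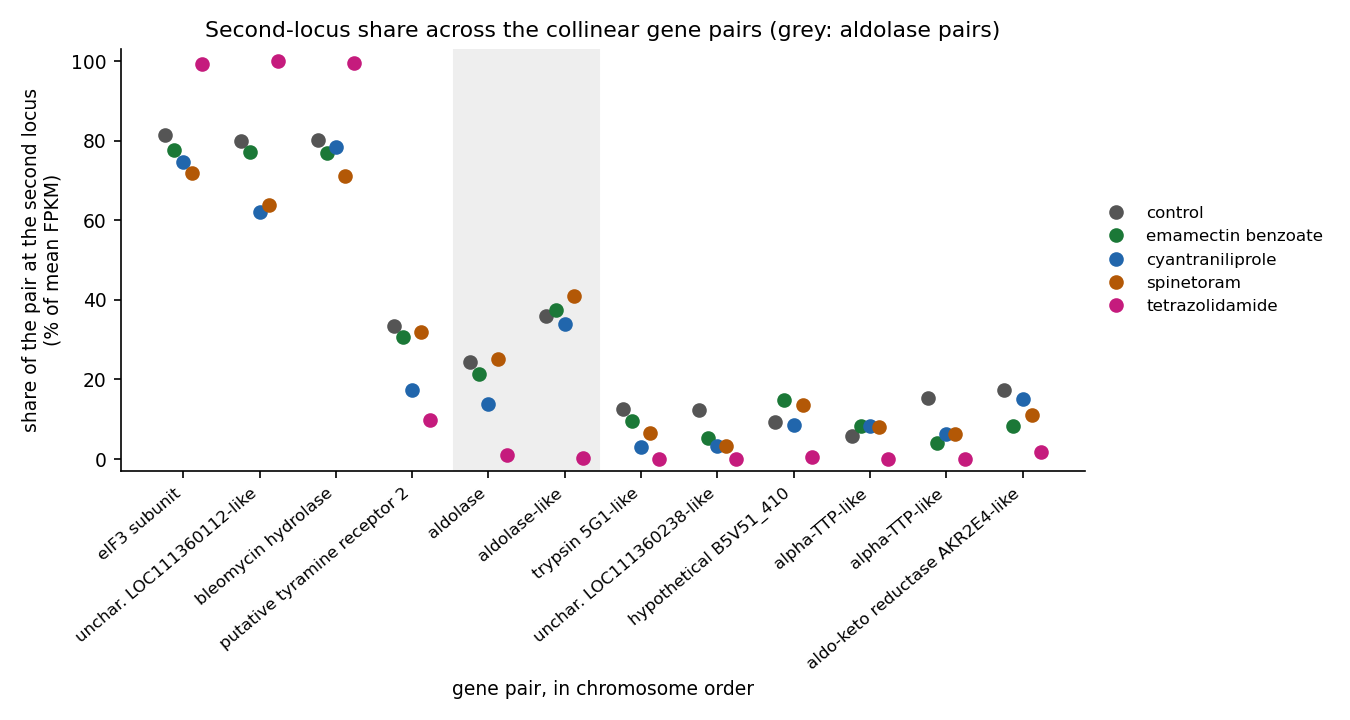
Share of each collinear gene pair at the second locus, in percent of the group's mean FPKM, for the 12 pairs with a mean of at least 1 FPKM, in their order on the sequence. With tetrazolidamide the share is near 100% in the 3 pairs on the left, 9.88% in the tyramine receptor pair and under 5% from the aldolase pairs onward, while in the other 4 groups both copies have a share above 0 in each pair.

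The other 3 insecticides were compared over the 29 tested neighbours. Of these, 2 were lower with emamectin benzoate, where 1.78% of all genes were lower, and 1 was higher with spinetoram, where 2.89% were higher. With cyantraniliprole 0 passed by edgeR's test. At an unadjusted p under 0.05 the counts were 3 with emamectin benzoate, 5 with cyantraniliprole and 7 with spinetoram. Over all genes 19.8%, 20.2% and 21.4% had such a p. With emamectin benzoate the falls were in LOC118275090, described as a hypothetical protein, at a log2 fold change of -3.71 (adjusted p = 0.0294), and in LOC118275146 at -0.97 (adjusted p = 0.0288). The rise with spinetoram was in LOC118274810 at 1.41 (adjusted p = 0.0247). All lay to the right of the aldolase genes.

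Other enzymes of glycolysis were also lower in the tetrazolidamide libraries, in the contrast that chose the aldolase genes. Outside aldolase the list held 16 genes, of which 12 were tested. With tetrazolidamide 9 of the 12 were called lower and 0 higher, where 11.4% of all genes were called lower, and their median log2 fold change was -0.85 against -0.07 over all genes. In a fit of only those 2 groups 1 was called. Without control 1 or 2 or tetrazolidamide 1 or 2 the count was 3 or 4. Glucose-6-phosphate isomerase (LOC118277306), which converts glucose phosphate to fructose phosphate, stood at 10.9 ± 2.34 FPKM against 32.8 ± 8.61 in control (SD, n = 3). Phosphofructokinase (LOC118270306), which makes the substrate of aldolase, stood at 19.6 ± 0.977 against 37.9 ± 15.6. Triosephosphate isomerase (LOC118263360), which interconverts the products of aldolase, stood at 86.2 ± 7.66 against 155 ± 35.5. Glyceraldehyde-3-phosphate dehydrogenase (LOC118271716), the most abundant enzyme of the list, stood at 546 ± 36.2 against 1184 ± 297. Phosphoglycerate kinase, phosphoglycerate mutase, 2 enolase genes and pyruvate kinase (LOC118281561) made up the rest. Hexokinase (LOC118276330) was not among them, with 34.4 ± 3.04 FPKM against 26.1 ± 2.46.

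The ratio of summed aldolase to glyceraldehyde-3-phosphate dehydrogenase did not set tetrazolidamide apart. It was 0.652, 0.533 and 0.472 in the 3 tetrazolidamide libraries and 0.44, 0.487 and 0.56 in the 3 controls, which overlap.

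With cyantraniliprole 1 of the 12 glycolysis genes passed and it was higher: hexokinase, which phosphorylates glucose, at 52.6 ± 4.65 FPKM against 26.1 ± 2.46 (log2 fold change 0.95, adjusted p = 0.0362). Over all genes 1.99% were called higher in that comparison. The median of the 12 was -0.60, and triosephosphate isomerase and glyceraldehyde-3-phosphate dehydrogenase had -0.73 and -0.66 with adjusted p = 0.0627 and 0.084. At an unadjusted p under 0.05 the count was 8 of 12, where 20.2% of all genes had such a p. Without control 3 it was 10 after adjustment, 1 higher and 9 lower, and it was 0 without any of control 1 or 2, the cyantraniliprole or emamectin benzoate libraries, or tetrazolidamide 1. With emamectin benzoate and spinetoram 0 of the 12 passed by edgeR, at medians of 0.17 and -0.37, and 0 passed by DESeq2. At an unadjusted p under 0.05 these counts were 0 and 2, where 19.8% and 21.4% of all genes had such a p. Without control 3 spinetoram had 5 lower after adjustment.

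Enzymes of the triose phosphate and fructose branches beside glycolysis, with lactate dehydrogenase and phosphoenolpyruvate carboxykinase, had 10 tested genes of 11. Fructose-1,6-bisphosphatase (LOC118274180), which removes a phosphate from the substrate of aldolase, fell with emamectin benzoate to 10.2 ± 1.5 FPKM from 47.3 ± 21 in control (log2 fold change -2.13, adjusted p = 0.0131). It also fell with spinetoram, to 16.4 ± 2.44 (-1.40, adjusted p = 0.0455). In both it was the 1 gene of the 10 that passed, where 1.78% and 1.12% of all genes were called lower. Both calls ended with only the groups compared, where 0 of all genes were called lower in either comparison. With cyantraniliprole 0 of the 10 passed. At an unadjusted p under 0.05 the counts were 4 with emamectin benzoate, 1 with cyantraniliprole and 4 with spinetoram. Over all genes 19.8%, 20.2% and 21.4% had such a p. With tetrazolidamide 2 of the 10 were called lower and 1 higher, where 11.4% and 10.9% of all genes were. One of the lower ones was again fructose-1,6-bisphosphatase, at 20.8 ± 9.31 FPKM against 47.3 ± 21 in control. The other was a sorbitol dehydrogenase-like gene (LOC118274356), at 6.48 ± 3.68 FPKM against 45.8 ± 26.2. The higher one was phosphoenolpyruvate carboxykinase (LOC118277526), the entry step of gluconeogenesis, at 136 ± 40.9 FPKM against 60.4 ± 29.1.

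**Figure D5:**
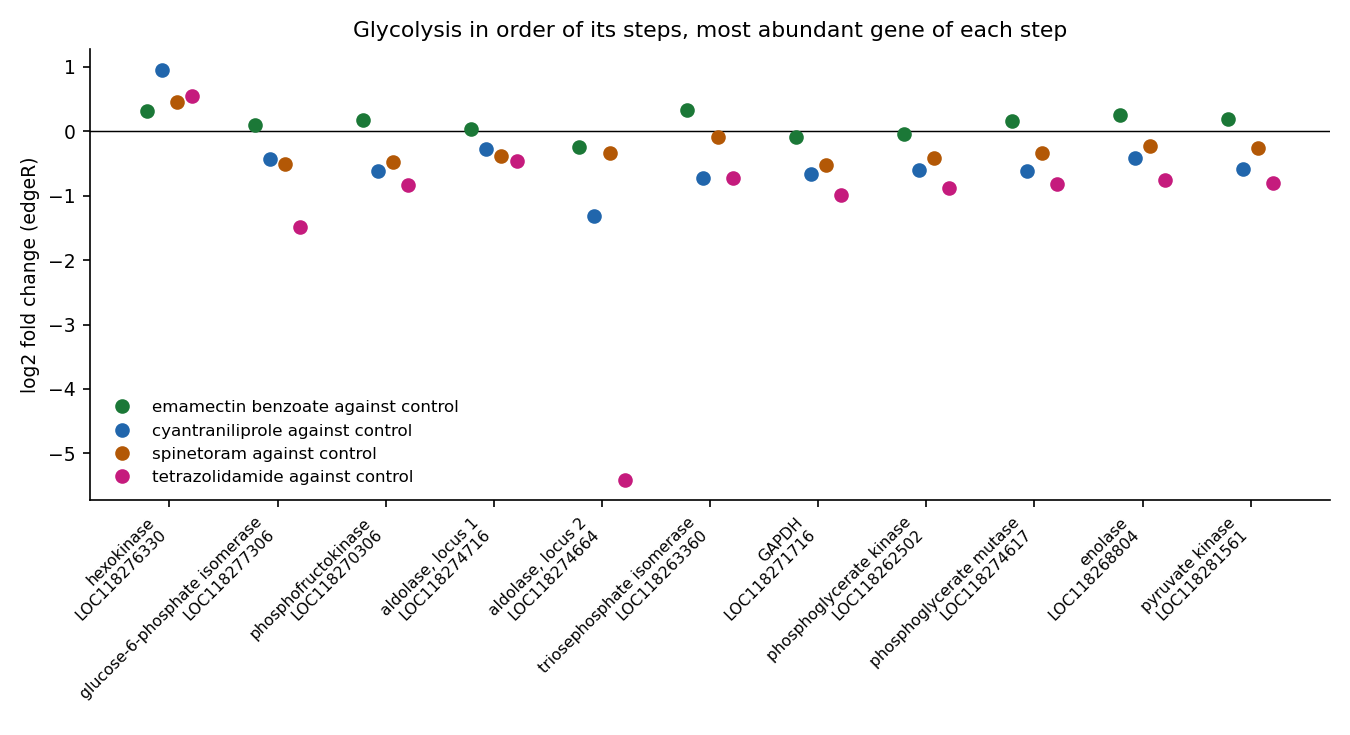
Log2 fold change against control of the most abundant gene at each step of glycolysis, in order of the steps, with the main aldolase gene of each locus, for 4 treatments. With tetrazolidamide every step but hexokinase lies below 0, between -0.46 and -1.48 apart from the second-locus aldolase gene at -5.41.

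Levels of tissue markers were read in the same libraries, and their part in the aldolase values was not tested. In whole-body RNA fewer cells of a type and less RNA per cell cannot be told apart. Contractile protein genes of muscle, 47 genes of which 3 were at 0 in every library, summed to 82960 to 134700 FPKM in control and 111200 to 148800 with tetrazolidamide. Of the 39 tested, 3 were called higher and 5 lower with tetrazolidamide, where 10.9% of all genes were higher and 11.4% lower. There was 1 lower with emamectin benzoate, 0 called with cyantraniliprole and 1 lower with spinetoram. Over all genes 1.78% were lower with emamectin benzoate and 1.12% with spinetoram. At an unadjusted p under 0.05 the muscle counts were 7, 6 and 5 of 39 in the same order. Over all genes 19.8%, 20.2% and 21.4% had such a p. The summed aldolase level was 0.171% to 0.301% of that muscle sum with tetrazolidamide and 0.38% to 0.627% in control. With cyantraniliprole the muscle sum was 80520 to 98880 FPKM. The 190 cuticle protein genes, 20 of them at 0 throughout, summed to 33970 to 44730 FPKM in control and 66180 to 78620 with tetrazolidamide, with 73 of 155 tested called higher, against the same 10.9% of all genes, and 5 lower. The 10 peritrophic matrix genes of the midgut summed to 220 to 919 FPKM in control and 739 to 1168 with tetrazolidamide, with 4 of 10 called higher, where 10.9% of all genes were. The 15 storage and lipid carrier genes of the fat body had overlapping sums, 1933 to 5151 FPKM in control and 1171 to 3866 with tetrazolidamide.

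Genes with the most similar profile were ranked by the Pearson correlation of log2 CPM with each aldolase gene, as a description over points that share their library. Over all 15 libraries the closest to LOC118274664 was a small nuclear ribonucleoprotein Sm D2 gene (LOC118270397, r = 0.983), a core splicing factor. It was also the gene ranked next to closest to LOC118275099 (r = 0.976), after dymeclin (LOC118279663, r = 0.984). None of the 5 closest to either lay on the sequence of the aldolase genes. Among the 5 closest to LOC118274664, LOC118270397, LOC118270439 and LOC118270711 all lay on NC_049723.1, with starts from 13093902 to 13650923. LOC118270397 and LOC118270439 were also among the 5 closest to LOC118275099. For LOC118274716 the 5 closest included phosphofructokinase (LOC118270306, r = 0.884), the enzyme 1 step before it. For LOC118275119 the closest was a glucose dehydrogenase gene (LOC118274656, r = 0.953).

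Without the tetrazolidamide libraries the closest genes changed for both second-locus genes. For LOC118274664 it was then a lachesin-like gene (LOC118273985, r = 0.94) and for LOC118275099 a tetratricopeptide repeat protein 5-like gene (LOC118271204, r = 0.935), with 0 of the earlier 5 in either list. For LOC118274716 the 5 closest over the 12 libraries included glucose-6-phosphate isomerase (LOC118277306, r = 0.905). For LOC118275119 the closest was again the glucose dehydrogenase gene (r = 0.951), followed by an ester hydrolase C11orf54-like gene and catalase (LOC118262513, r = 0.935).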

How the data were processed

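Protocols in the labels name TRIzol extraction, oligo(dT) purification and dUTP second strands. The submitters' processing notes list cutadapt 1.9, HISAT2 2.0.4, StringTie 1.3.4d and the packages edgeR and DESeq2, without roles. Per gene and library, the authors deposited estimated counts, which are whole and unscaled, and FPKM values, which are 0.0001 wherever the count is 0 (read here as 0). Counts were fitted with edgeR 4.0.16 in R 4.3.3 (quasi-likelihood test, TMM factors, filterByExpr with a minimum count of 10). The model had 1 coefficient per group over all 15 libraries and 15505 tested genes. An adjusted p under 0.05, two-sided, counted as changed. The test was also run on simulated counts. Members and lists were chosen with earlier results of these data known. Named genes were the 4 members, their 10 neighbours on each side, the most abundant gene of each glycolysis step and the 5 genes closest in profile. Other genes were named after their values were seen. Gene lists are patterns on the deposited descriptions. Of 20784 identifiers, 14309 were found in the RefSeq table. Alternatives were DESeq2 1.42.0, its size factors in edgeR, limma 3.58.1 on log2(FPKM + 1) and log2(FPKM + 0.1), no filter, only the groups compared, a replicate block, single libraries left out and, chosen after seeing the data, no tetrazolidamide libraries.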

Additional observations from a re-analysis of the deposited data

How the results depend on the processing

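The fall of LOC118274664 with cyantraniliprole kept its direction in every alternative run, but the call ended with no filter (-1.314, adjusted p = 0.0508), with only the groups compared (-1.345, 0.169), with the replicate block (-1.305, 0.0836) and without the 3 tetrazolidamide libraries (-1.337, 0.0599). Leaving out 1 library gave -1.596 to -1.12. Its adjusted p for any difference among 4 groups was 0.00729 by DESeq2 and 0.0329 to 0.204 with 1 library left out. LOC118275099 with cyantraniliprole turned to 0.043 and 0.04 by limma on log2(FPKM + 0.1) and log2(FPKM + 1). Its tetrazolidamide value depended on the pseudocount, at -7.53 and -4.78 there against -8.66, and is no bound.

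Counts of all changed genes moved most. By DESeq2 they were 3287 for any difference, 1539 (921 higher, 618 lower) for cyantraniliprole, 1777 (847 and 930) for emamectin benzoate and 1882 (1107 and 775) for spinetoram. The values reported were 700, 406 (309 and 97), 634 (358 and 276) and 622 (448 and 174). By limma any difference gave 1082 on log2(FPKM + 1), and spinetoram 384 higher and 326 lower. On log2(FPKM + 0.1) spinetoram gave 392 and 266, and the median of all genes shifted to -0.109 for spinetoram and -0.163 for tetrazolidamide. With only the groups compared the counts were 245, 0 (2295 at an unadjusted p under 0.05), 0 (2543) and 2, and tetrazolidamide gave 1742 against 3452. Without the tetrazolidamide libraries cyantraniliprole, emamectin benzoate and spinetoram gave 253, 244 and 353. The replicate block gave 381 for any difference and 364 (234 higher, 130 lower) for emamectin benzoate. Same-numbered libraries of different groups had correlations of -0.154 to 0.373, and differently numbered ones -0.351 to 0.31. These ranges overlap. They were taken after centring each small group, so they cannot decide whether the numbers pair the samples.

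Glycolysis genes called with cyantraniliprole numbered 3 by DESeq2 and 0 with only the groups compared, with the replicate block and without the tetrazolidamide libraries. With tetrazolidamide they numbered 1 and 5 in the first and second of those fits. Leaving out 1 library gave 240 to 1345 genes for any difference, 76 to 1149 for cyantraniliprole, 36 to 725 for emamectin benzoate, 35 to 1075 for spinetoram and 2356 to 3426 for tetrazolidamide. Glycolysis counts ran from 0 to 10, 0 to 5 and 3 to 10 for cyantraniliprole, spinetoram and tetrazolidamide. LOC118274716 ran from -0.466 to 0.037 and -0.16 to 0.33 for cyantraniliprole and emamectin benzoate, LOC118275099 from -0.23 to 0.136 and -0.058 to 0.301, and LOC118275119 from -0.195 to 0.649 and -0.256 to 0.594. For tetrazolidamide LOC118275099 ran from -10.083 to -8.097 and LOC118275119 from -0.502 to 0.435. The causes were not tested.

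With 3 libraries per group and a biological coefficient of variation of 54.8%, the SE of the aldolase-like genes was 0.514 to 0.528 on the log2 scale, and the split of reads between copies cannot be checked from the deposited values.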
